A study of Mus musculus with 6 samples.

Results

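The epidermal lipid barrier genes are 10 genes of the deposited RNA-Seq table that make, carry or process the lipids of the outer skin: *Abca12*, *Alox12b*, *Aloxe3*, *Alox12e*, *Elovl4*, *Pnpla1*, *Cyp4f39*, *Lipk*, *Lipm* and *Ugcg*. They were chosen by gene symbol, with the difference between tumor and normal gland already known, and all 10 were among the 15280 genes of the table. The data came from 3 parous BK5.ATF3 females that had raised 1 litter. In this line ATF3 is a transgene driven by the bovine keratin 5 promoter, which is active in basal epithelial cells. Each mouse gave 1 mammary tumor (T), with an onset at 6 to 12 months of age, taken at a length of 1.5 cm, and the normal mammary gland next to it (M), so n = 3 for each tissue. A library is named by its tissue and mouse, so that gland M11035 and tumor T11035 come from 1 animal, as do M11640 and T11640, and M9232 and T9232. Both tissues were ATF3 transgenic, with no wild-type gland among them, so every comparison here is between tumor and gland of transgenic animals. *Atf3* itself had 4.47, 8.09 and 22.6 CPM (fragments scaled to the effective size of the library) in the glands and 13.4, 18.3 and 19.3 CPM in the tumors, and since both tissues carry the transgene this checks no label.

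The outermost layers of the epidermis are sealed by lipid sheets between dead cells. Ceramides with very long fatty acids are built in the upper living layers, glucosylated, loaded into lamellar bodies and secreted, and some of them are then oxidized by lipoxygenases and attached to the cell envelope. Inherited loss of several of these genes causes ichthyosis, a scaling skin disease. A mammary gland is mostly fat, with an epithelium of luminal and basal cells, and has no such barrier.

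The number of fragments on genes ranged from 4750989 to 7806908 per library, and 3 fragments, taken as the floor of detection, corresponded to 0.393 to 0.610 CPM. A differentially expressed gene (DEG) was one that differed between tumor and gland by a log2 fold change (log2FC) of 1 or more in either direction, with a Benjamini-Hochberg adjusted p not above 0.05 in limma's test of log2(CPM + 0.5) across all genes. The SE of a log2FC is its standard error in that fit. The tissue labels were set against marker genes. The 7 adipocyte markers summed to between 3240 and 6377 CPM in the glands and between 145 and 209 CPM in the tumors. The 5 basal epithelial markers, among them *Krt5* and *Krt14*, summed to 47.0 to 115 CPM in the glands and 2042 to 2238 CPM in the tumors. The sum of the 6 luminal markers overlapped between the tissues, at 176 to 404 CPM in the glands and 345 to 461 CPM in the tumors, but its members did not move alike. *Krt8*, *Krt18* and *Krt19* rose, *Elf5* fell, and *Epcam* and *Cldn3* were not called. In whole tissue, fewer cells of a type and less RNA per cell cannot be told apart.

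Of the 10 barrier genes, 9 were DEGs with higher expression in the tumors, 0 were lower and 1, *Alox12e*, was not called. Over the whole table, 28.2% of genes were DEGs, 14.5% upward and 13.7% downward. In the same 9 genes, the 3 tumors lay above the 3 glands with no overlap, as they did in 27.6% of all genes. The genes were selected on this contrast, so the counts describe the selection, and no p-value is given for them. In 7 of the 10 genes the gland mean was under 1 CPM, and in *Alox12b*, *Cyp4f39* and *Lipk* every gland was at or under the floor.

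**Figure D1:**
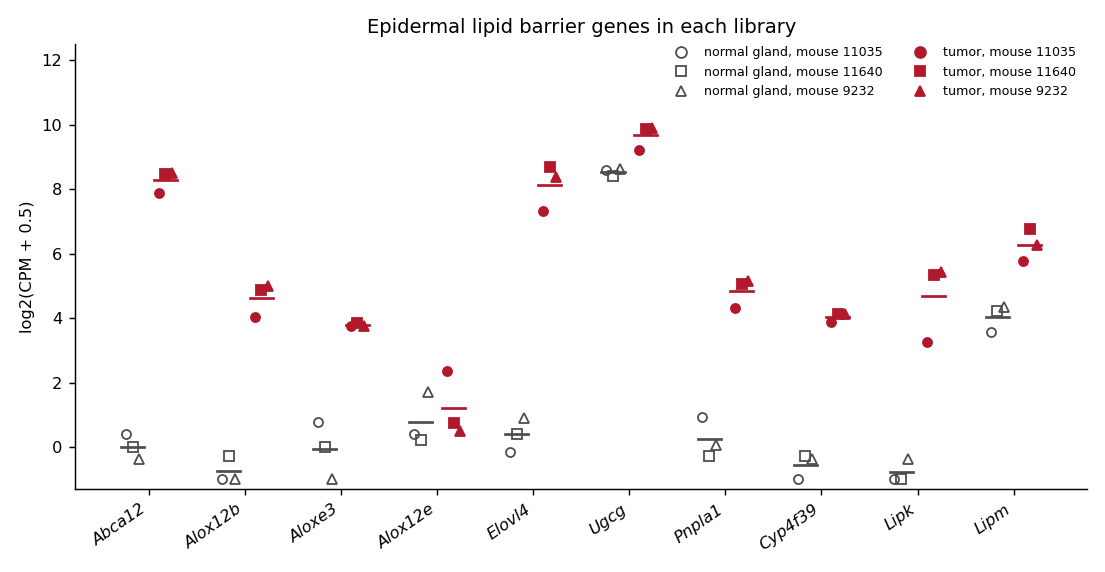
Level of the 10 barrier genes in each of the 6 libraries, as log2(CPM + 0.5), with open symbols for glands, filled symbols for tumors, 1 symbol shape per mouse and a line at each mean. The tumors lay above all glands in 9 genes, and the ranges overlapped in *Alox12e*.

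The transporter and the enzyme that makes the longest fatty acids had the highest fitted log2FC of the barrier genes. *Abca12* encodes the ATP-binding cassette transporter that loads glucosylceramides into lamellar bodies. It lies on the minus strand of chromosome 1, from 71289664 to 71461484 (mm9, the build of the files, for all gene positions here). Its level was 0.813, 0.496 and 0.274 CPM in M11035, M11640 and M9232, from 4, 3 and 2 fragments, and 234, 355 and 359 CPM in T11035, T11640 and T9232. All 3 tumors were far above all 3 glands, and T11035 was the lowest tumor. The mean rose from 0.527 ± 0.271 CPM (SD, n = 3) to 316 ± 71.1 CPM (log2FC 8.27, SE 0.26). From the pooled fragments, the tumor to gland ratio was 656, with a 95% exact interval of 345 to 1435 that covers counting error only.

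*Elovl4* encodes an elongase of very long chain fatty acids and lies on chromosome 9 from 83672300 to 83699912, on the minus strand. Its level was 0.407, 0.826 and 1.37 CPM in M11035, M11640 and M9232, and 158, 413 and 331 CPM in the tumors of the same mice. The groups did not overlap, and T11035 was again lowest, while T11640 was highest. The mean was 0.867 ± 0.482 CPM in the glands and 301 ± 130 CPM in the tumors (log2FC 7.74, SE 0.39). The pooled ratio of *Elovl4* was 339 (95% exact interval 212 to 583). The intervals of *Abca12* and *Elovl4* both overlap those of *Lipk* and *Alox12b*, given below, which rest on 2 gland fragments each. Within the mice, the log2 ratio of tumor to gland was 7.45, 8.28 and 7.47 for *Elovl4* and 7.48, 8.48 and 8.86 for *Abca12*.

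*Ugcg*, on the plus strand of chromosome 4 from 59202129 to 59235705, encodes the glucosyltransferase that makes glucosylceramide from ceramide, a step used in most tissues. It was the one barrier gene expressed strongly in the glands, with 388, 339 and 394 CPM, and it reached 597, 936 and 960 CPM in the tumors. All tumors exceeded all glands, although the margin was narrow in the mouse of T11035. The mean rose from 374 ± 29.8 CPM to 831 ± 203 CPM (log2FC 1.12, SE 0.20), and the ratio within mice was 0.62, 1.46 and 1.29 on the log2 scale.

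Promoters were available in the RefSeq table (GRCm38.p6, 250 bases before to 50 after the gene start) for 8 of the 10 genes, all but *Aloxe3* and *Lipk*. The sequences of 4 are shown because they include the members with the most CpGs and differ widely in gland level, with each CpG in capitals. They are written from 5′ to 3′ on the gene's strand. *Abca12* (chr1:71414861-71415160, minus strand) and *Alox12b* (chr11:69156822-69157121, plus strand) averaged under 1 CPM in the glands, as did *Elovl4* (chr9:83806256-83806555, minus strand), whereas *Ugcg* (chr4:59189300-59189599, plus strand) did not.
Abca12: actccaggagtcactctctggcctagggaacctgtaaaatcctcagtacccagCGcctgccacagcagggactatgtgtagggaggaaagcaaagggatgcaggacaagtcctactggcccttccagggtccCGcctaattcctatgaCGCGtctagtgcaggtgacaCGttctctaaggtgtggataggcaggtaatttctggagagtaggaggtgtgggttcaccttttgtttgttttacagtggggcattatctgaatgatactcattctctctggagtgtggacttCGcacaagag
Alox12b: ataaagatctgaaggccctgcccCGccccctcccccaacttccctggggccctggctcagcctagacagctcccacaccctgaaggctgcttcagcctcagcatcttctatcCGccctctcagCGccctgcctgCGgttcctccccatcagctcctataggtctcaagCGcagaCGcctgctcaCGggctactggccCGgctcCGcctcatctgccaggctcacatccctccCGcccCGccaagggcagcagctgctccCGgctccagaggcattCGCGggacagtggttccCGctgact
Elovl4: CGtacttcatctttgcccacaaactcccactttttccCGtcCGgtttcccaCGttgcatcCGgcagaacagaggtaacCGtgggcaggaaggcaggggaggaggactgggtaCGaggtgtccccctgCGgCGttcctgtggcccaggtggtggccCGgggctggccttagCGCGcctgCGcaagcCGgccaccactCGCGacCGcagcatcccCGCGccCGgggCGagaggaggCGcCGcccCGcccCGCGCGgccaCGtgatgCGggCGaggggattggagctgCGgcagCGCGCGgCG
Ugcg: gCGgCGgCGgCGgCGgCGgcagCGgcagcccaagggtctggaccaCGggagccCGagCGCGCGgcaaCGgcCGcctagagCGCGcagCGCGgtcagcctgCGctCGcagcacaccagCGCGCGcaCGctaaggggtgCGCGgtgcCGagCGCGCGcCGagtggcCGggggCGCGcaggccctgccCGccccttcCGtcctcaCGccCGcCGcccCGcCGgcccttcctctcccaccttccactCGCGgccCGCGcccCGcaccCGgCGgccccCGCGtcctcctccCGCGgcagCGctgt
The *Ugcg* window held 53 CpGs at a GC content of 81.3% and the *Elovl4* window 35 CpGs at 71.0%. *Alox12b* had 15 CpGs at 66.0% and *Abca12* had 6 at 51.3%. The other members lay between 3 CpGs in *Alox12e* and *Lipm* and 11 in *Cyp4f39*, with a median of 7 over 32851 promoters, of which 11.7% held at least 30. The genes with the most CpGs were thus the barrier gene highest in the glands and one that averaged under 1 CPM there. Searched on both strands, the AP-1 motif TGANTCA was in 0 of the 8 windows and in 7.81% of all promoters. The CRE motif TGACGTCA was in 0 of 8 and in 1.79%, and the GRHL motif AACNNGTT in 0 of 8 and in 4.20%. The KLF motif GGGTG was in 4 of 8 (*Alox12b*, *Alox12e*, *Pnpla1* and *Ugcg*) and in 57.5% of all promoters. Letter matches in these windows do not establish binding.

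*Pnpla1* and *Cyp4f39* act at different steps in the making of the same lipid, the acylceramide. *Cyp4f39* encodes an omega-hydroxylase of very long fatty acids, and *Pnpla1* encodes the transacylase that adds linoleate to the hydroxylated ceramide. *Pnpla1* (chromosome 17, 28995356 to 29027253, plus strand) had 1.42, 0.330 and 0.547 CPM in the glands and 19.4, 32.8 and 34.6 CPM in the tumors. Its log2FC was 4.59 (SE 0.37), from 0.767 ± 0.579 to 28.9 ± 8.33 CPM. *Cyp4f39* (chromosome 17, 32605404 to 32630265, plus strand) had 0, 0.330 and 0.274 CPM in the glands, from 4 fragments in all, and 14.1, 16.8 and 16.9 CPM in the tumors. The tumors of both genes were apart from the glands, and those of *Cyp4f39* differed little from each other, at 15.9 ± 1.57 CPM. The log2FC of *Cyp4f39* was 4.58 (SE 0.30). The pooled tumor to gland ratio was 73.6 for *Cyp4f39* (95% exact interval 28.5 to 272) and 41.8 for *Pnpla1* (24.3 to 79.0).

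Among the lipoxygenases, the pair that acts on acylceramide in series rose and the third was not called. *Alox12b* encodes the enzyme that oxidizes the linoleate of acylceramide, and *Aloxe3* encodes the next enzyme, which isomerizes the product. They lie 7.87 kb apart on the plus strand of chromosome 11, *Aloxe3* from 68939398 to 68962617 and *Alox12b* from 68970491 to 68983294. *Alox12b* had 0, 0.330 and 0 CPM in the glands, from 2 fragments, and 15.8, 28.7 and 31.6 CPM in the tumors. The pooled ratio was 239, with an interval of 65.9 to 1981 that reflects the 2 gland fragments, and the fitted log2FC was 5.39 (SE 0.36). *Aloxe3* had 1.22, 0.496 and 0 CPM in the glands and 13.0, 14.0 and 12.9 CPM in the tumors. Its tumors were the most alike of any barrier gene, at 13.3 ± 0.620 CPM, and its log2FC was 3.86 (SE 0.43). Per kb of exon, *Alox12b* exceeded *Aloxe3* 3.18-fold in T11035, 5.37-fold in T11640 and 6.43-fold in T9232.

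*Alox12e* encodes the epidermal-type lipoxygenase, and lies 1146 kb from *Alox12b* on the minus strand (70129112 to 70136130). It had 0.813, 0.661 and 2.74 CPM in the glands and 4.65, 1.18 and 0.899 CPM in the tumors. T11035 was the highest tumor, M9232 the highest gland, and the groups overlapped. The means were 1.40 ± 1.16 and 2.24 ± 2.09 CPM, and the log2FC of 0.43 (SE 0.59) was smaller than its error. The tumor was above the gland in 2 of 3 mice, with log2 ratios of 1.97, 0.53 and -1.21. Without T11035 the fold change turned to -0.15.

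The acid lipases *Lipk* and *Lipm* belong to a group of lipases switched on late in epidermal differentiation, and lie 53.1 kb apart on the plus strand of chromosome 19 with *Lipn* between them. *Lipk* (34082780 to 34122287) had 0, 0 and 0.274 CPM in the glands, from 2 fragments, and 9.12, 39.4 and 43.0 CPM in the tumors. T11035 was far below the other tumors, with a 4.72-fold range, the widest spread among the tumors of the 9 DEGs. The pooled ratio was 296 (95% exact interval 81.6 to 2449), and the fitted log2FC was 5.47 (SE 0.56). *Lipm* (34175433 to 34197177) was detected well above the floor in every gland, at 11.4, 18.2 and 19.7 CPM, and had 54.1, 108 and 76.4 CPM in the tumors. The groups did not overlap, and the mean rose from 16.4 ± 4.42 to 79.5 ± 27.1 CPM (log2FC 2.22, SE 0.29). Exons of *Lipm* share 139 bp with *Ankrd22* on the opposite strand, and the counting is not known to have used strand. *Ankrd22* had 0.760 ± 0.682 CPM in the glands and 26.0 ± 7.64 CPM in the tumors. How much of the *Lipm* count came from the shared bases was not tested. The most similar transcripts of other genes were 65.9% to 77.6% identical to the barrier genes over stretches of at least 200 bp, and *Ugcg* had none, so no near-identical copy was found.

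Compared per kb of exon, the order of the tumor means was *Ugcg*, *Elovl4*, *Abca12*, *Lipm*, *Lipk*, *Alox12b*, *Cyp4f39*, *Pnpla1*, *Aloxe3* and *Alox12e*. The top was 159 ± 39.0 CPM per kb in *Ugcg*, 98.5 ± 42.5 in *Elovl4* and 37.9 ± 8.54 in *Abca12*, and the bottom 2.09 ± 0.10 in *Aloxe3* and 0.79 ± 0.74 in *Alox12e*. Between neighbors in this order, the tumor ranges were apart at only 3 of 9 steps. *Elovl4* exceeded *Abca12* 2.60-fold, *Pnpla1* exceeded *Aloxe3* 3.09-fold, and *Aloxe3* exceeded *Alox12e* 2.63-fold. All other neighbors overlapped in range. Within each of the 3 tumors, however, *Ugcg* exceeded *Elovl4*, *Abca12* exceeded *Lipm*, *Lipm* exceeded *Lipk*, and *Alox12b* exceeded *Cyp4f39*. *Lipk* exceeded *Alox12b* in 2 tumors, and *Cyp4f39* exceeded *Pnpla1* in 1. In the glands, *Ugcg* stood at 71.7 CPM per kb and *Lipm* at 6.08, and every other barrier gene was at 0.50 or less.

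**Figure D2:**
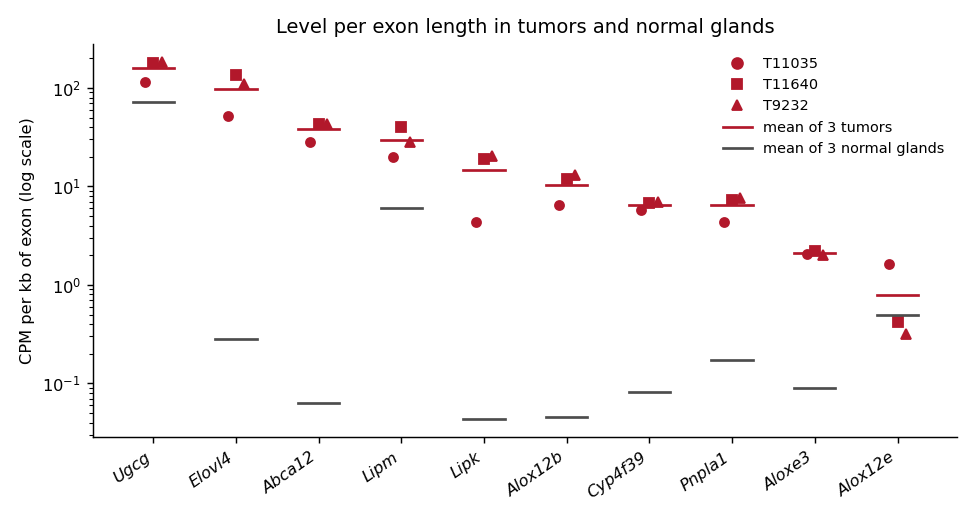
Expression per kb of exon (CPM per kb, log axis) of each barrier gene in the 3 tumors (points), with lines at the means of the 3 tumors and the 3 glands, ordered by the tumor mean. *Ugcg* leads at 159 CPM per kb in the tumors, and only *Ugcg* and *Lipm* stand well above 0.50 CPM per kb in the glands.

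The tumors differed among themselves in a shared way. T11035 was the lowest tumor in 8 of the 10 barrier genes, against 39.9% of all genes, and its median level was 60.8% of the mean of the other tumors. The exceptions were *Aloxe3*, where T9232 was lowest by a small margin, and *Alox12e*. T11035 also had the lowest sum of suprabasal epidermal markers, at 1241 CPM against 2372 in T11640 and 2129 in T9232. Its basal markers, at 2042 CPM against 2238 and 2167, were closer to the others. Leukocyte markers were lower in T11035 as well, with a sum that was 67.2% of the mean of the other tumors, against 55.1% for the suprabasal sum. When each gene was divided by the suprabasal sum of the same library, T11035 was lowest in 2 genes and highest in 5, and the median ratio of highest to lowest tumor went from 1.89 to 1.32. Such a division raises T11035 by the same factor in every gene, so the change in rank follows from the low suprabasal sum and is no separate result. Divided by the basal sum, T11035 stayed lowest in 8, with a median ratio of 1.75, and by the luminal sum in 7, with 1.65. Divided by the sum of the hair shaft and inner root sheath markers, it was lowest in 5, and the median ratio widened to 2.23. For *Abca12*, the level was 11.4%, 15.8% and 16.6% of the basal sum and 18.8%, 14.9% and 16.8% of the suprabasal sum in T11035, T11640 and T9232. *Aloxe3* went the other way, from a 1.09-fold spread in CPM to a 1.78-fold spread against the suprabasal sum. So did *Cyp4f39*, from 1.20-fold to 1.61-fold, and *Alox12e*, from 5.17-fold to 8.88-fold. The part of the suprabasal or leukocyte markers in these differences was not tested.

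**Figure D3:**
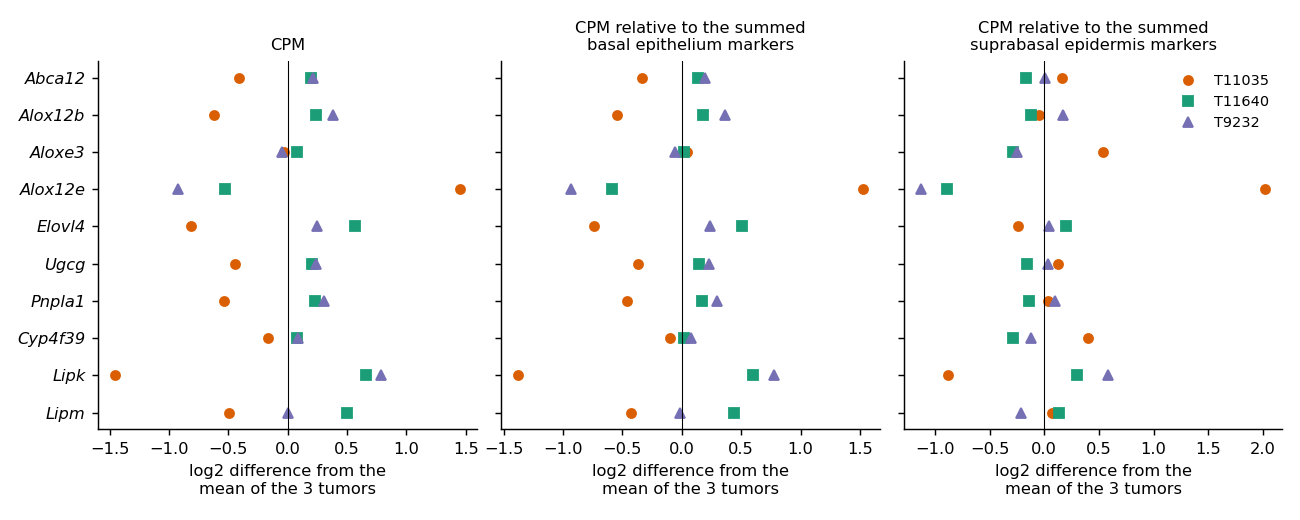
Log2 difference of each tumor from the mean of the 3 tumors for the 10 barrier genes, in CPM (left) and after division by the summed basal (middle) or suprabasal (right) markers of the same library. T11035 is lowest in 8 of 10 genes in CPM and against the basal sum, and the division by the suprabasal sum moves all its points to the right by the same amount.

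Markers of epidermal and hair follicle cells moved with the barrier genes. The suprabasal list had 7 of 8 members in the table (*Flg* was not among them), and all 7 rose, with a median log2 fold change of 7.25. Their sum was 5.29 to 9.08 CPM in the glands and 1241 to 2372 CPM in the tumors. *Krt1* rose from 0.609 ± 0.250 to 442 ± 106 CPM (adjusted p = 4.3e-07, limma) and *Krt10* from 5.10 ± 1.62 to 997 ± 321 CPM (adjusted p = 1.22e-06, limma). *Lor*, a cornified envelope protein, was at 0 in all 3 glands. All 5 basal markers rose, with a median of 5.48, and all 7 markers of the hair shaft and inner root sheath rose as well, with a median of 6.58 and a sum of 1023 to 2137 CPM in the tumors against 2.33 to 6.71 CPM in the glands. Sebaceous gland markers did not move with them: of 5 in the table, 1 rose and 3 fell, their sum was 15.1 to 21.1 CPM in the tumors and 22.0 to 57.1 CPM in the glands, and *Mc5r* was at 0 in every tumor. Of 6 leukocyte markers, 1 rose and 3 fell, and the 2 melanocyte markers in the table were not called. The part of these cell types in the barrier genes was not tested.

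Against the basal sum of the same library, the barrier genes divided into groups. *Abca12* and *Elovl4* remained above all glands, by 3.54 and 3.01 on the log2 scale. *Ugcg*, *Lipm* and *Alox12e* lay below all glands, with differences of -3.61, -2.50 and -4.30. The other 5 overlapped, and in genes at the floor the gland side of this ratio is set by the 0.5 CPM added before taking logs. Without that addition, all tumors of *Alox12b*, *Cyp4f39* and *Lipk* would lie above all glands. The overlap of these genes follows from the addition and is no result. Against the suprabasal sum, 8 of the 10 genes lay below all glands and 0 above, and that sum itself rose by 8.12 on the log2 scale. Here the added 0.5 CPM weighs more, as the sum was only 5.29 to 9.08 CPM in the glands. *Alox12b*, *Aloxe3*, *Cyp4f39* and *Lipk* had a gland at 0 CPM, which without the added 0.5 CPM would lie below every tumor. For these genes the place below the glands follows from that addition and is no result. Neither division was made for all genes.

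The other genes of the barrier pathway were taken from 4 lists of 43 genes, of which 41 were in the table. These lists were compiled with earlier results of the data known. Of the 41, 15 rose, 5 fell and 21 were not called, where 14.5% of all genes rose and 13.7% fell. The median log2 fold change was 0.36, against -0.00 over all genes, and it went to 0.60 without M11640. The same shares over all genes are the background of each list below. In all 4 lists there were genes that were not called. Some of these missed only the fold threshold, among them *Sptlc2* at 0.87, *Slc27a4* at 0.90 and *Hsd17b12* at -0.99 (adjusted p = 0.00334, 0.0181 and 0.00734, limma).

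**Figure D4:**
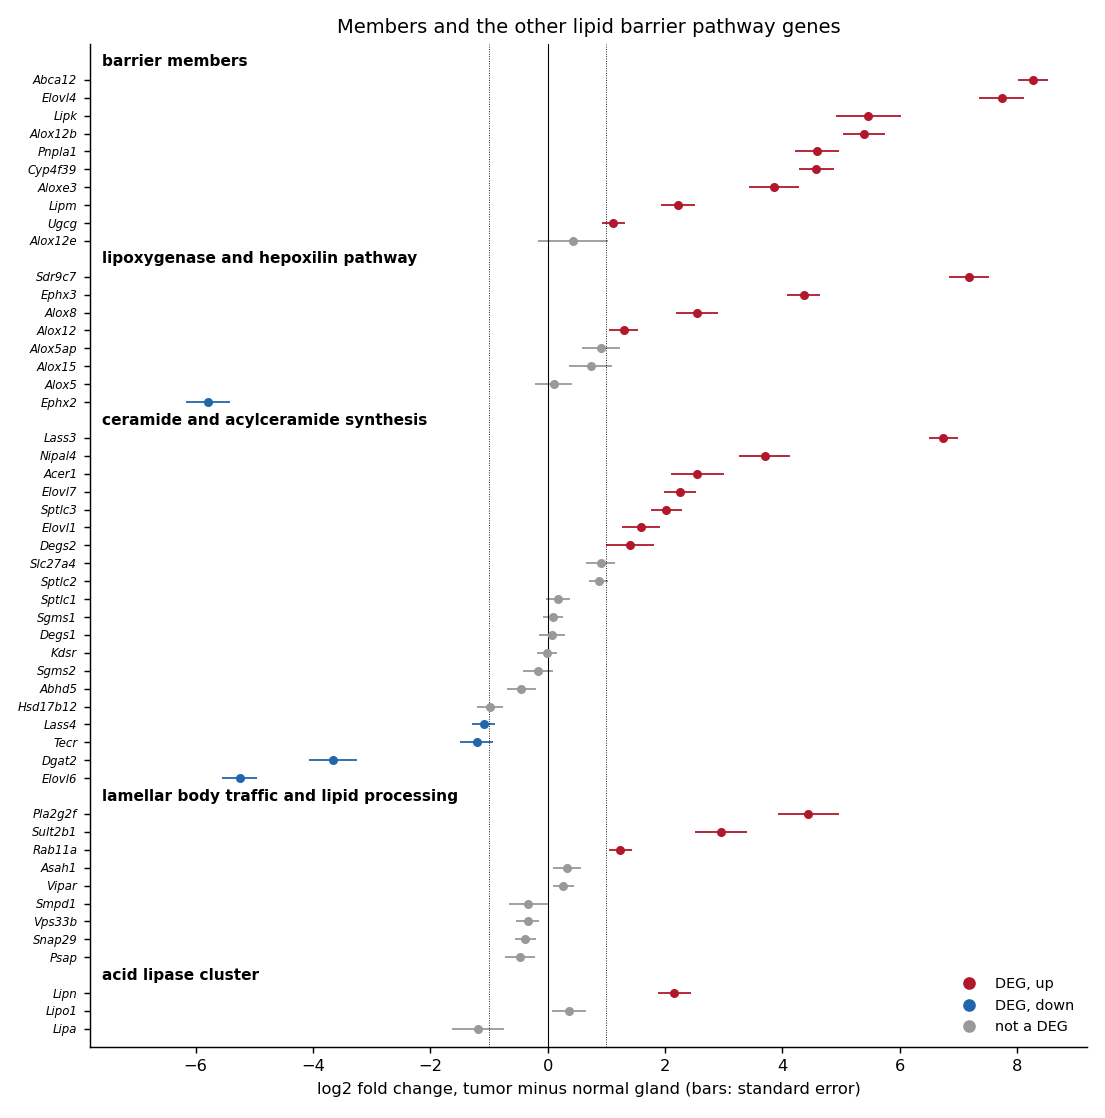
Log2 fold change of tumor against gland for the barrier genes and genes of the 4 pathway lists, with bars for the standard error, dotted lines at -1 and 1, and colors for DEGs up, DEGs down and genes not called. The barrier genes lie between 0.43 and 8.27, and the 4 pathway lists hold genes on both sides of 0.

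In the lipoxygenase and hepoxilin list, 4 of 8 genes rose, 1 fell and 3 were not called. *Sdr9c7* encodes a dehydrogenase that acts on the lipid after *Alox12b* and *Aloxe3*, and had 0.610, 0.330 and 0.137 CPM in the glands and 75.0, 156 and 150 CPM in the tumors. Its mean rose from 0.359 ± 0.238 to 127 ± 45.3 CPM (log2FC 7.18, SE 0.34, adjusted p = 2.6e-06 by limma), and T11035 was again the lowest tumor. *Ephx3*, an epoxide hydrolase, had 0.407, 0.661 and 0.274 CPM in the glands and 15.4, 22.8 and 18.7 CPM in the tumors (log2FC 4.37, adjusted p = 1.16e-05). The lipoxygenases *Alox8* and *Alox12* rose by 2.54 and 1.29 on the log2 scale (adjusted p = 6.78e-04 and 0.00366). *Ephx2*, a soluble epoxide hydrolase, fell from 111 ± 38.5 to 1.59 ± 1.05 CPM (log2FC -5.79, adjusted p = 1.16e-05). *Alox5*, *Alox15* and *Alox5ap* were not called, with a log2FC of 0.10, 0.74 and 0.90 and an adjusted p of 0.828, 0.142 and 0.0528.

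In the ceramide and acylceramide list, 7 of 20 genes rose, 4 fell and 9 were not called, with a median of 0.14. The ceramide synthase *Cers3*, listed under its older symbol *Lass3*, uses the fatty acids made by *Elovl4*. *Lass3* had 0.203, 0.165 and 0.274 CPM in the glands and 59.5, 94.2 and 78.1 CPM in the tumors (log2FC 6.75, SE 0.24, adjusted p = 1.03e-06 by limma), and the gland values came from 4 fragments in all. *Nipal4*, a membrane protein whose loss causes ichthyosis, rose by 3.70 (adjusted p = 2.66e-04), and the alkaline ceramidase *Acer1* rose by 2.55 (adjusted p = 0.00246). Smaller rises were those of the elongases *Elovl7* and *Elovl1*, at 2.25 and 1.60, of the serine palmitoyltransferase subunit *Sptlc3*, at 2.02, and of the ceramide hydroxylase *Degs2*, at 1.41 (adjusted p = 2.77e-04, 0.00459, 4.08e-04 and 0.0237). *Degs2* lost its call without M11640 (adjusted p = 0.0655), T11640 (0.0957) or T9232 (0.0948). The genes that fell included those that supply shorter fatty acids and fat stores. *Elovl6*, which elongates palmitate, fell from 1906 ± 989 to 45.7 ± 3.14 CPM (log2FC -5.25, adjusted p = 6.82e-06), and *Dgat2*, which makes triglyceride, fell from 276 ± 125 to 21.9 ± 9.83 CPM (-3.66, adjusted p = 1.94e-04). Both are also abundant in adipocytes, whose 7 markers all fell, with a median of -6.38. The part of adipocyte content in these falls was not tested. *Tecr* and *Lass4* fell by 1.21 and 1.09 on the log2 scale (adjusted p = 0.00947 and 0.0026). *Tecr* went to -0.89 without M11640, and *Lass4* to -0.94 without M11035 and -0.99 without T11640, short of the fold threshold.

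In the list of lamellar body traffic and lipid processing, 3 of 10 genes rose, 0 fell and 7 were not called, with a median of 0.30. *Pla2g2f*, a secreted phospholipase of the epidermis, rested on 1 gland fragment and had 4.65, 19.4 and 17.2 CPM in the tumors (log2FC 4.45, adjusted p = 2.38e-04). Its pooled ratio was 268, with a 95% exact interval of 47.6 to 10606. The cholesterol sulfotransferase *Sult2b1* rose from 0.702 to 8.70 CPM and the trafficking GTPase *Rab11a* from 76.6 to 182 CPM (log2FC 2.95 and 1.24, adjusted p = 9.54e-04 and 0.0014). Of the other acid lipases, *Lipn* rose from 1.06 to 6.41 CPM (log2FC 2.16, adjusted p = 4.66e-04), and *Lipa*, a lysosomal lipase, and *Lipo1* were not called. *Lipa* had 333 ± 220 CPM in the glands and 124 ± 20.7 CPM in the tumors (log2FC -1.19, adjusted p = 0.0637). With the mouse as a replicate block it passed the threshold, so that 1 of the 3 acid lipases was then called down.

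The relatives of the barrier genes by sequence family were listed as well. Of 5 other *Elovl* genes 2 rose and 2 fell, with a median of -0.99, and *Elovl3* fell from 23.2 to 0.0620 CPM, which rests on 1 tumor fragment. *Elovl1* and *Elovl7*, which rose, and *Elovl6*, which fell, were already counted in the ceramide and acylceramide list. Of 5 other *Pnpla* genes, 0 rose and 3 fell, with *Pnpla2*, the triglyceride lipase of fat cells, at -4.86 (adjusted p = 6.97e-06, limma). Of 4 other *Cyp4f* genes, 0 were called in either direction. Of 11 other *Abca* genes, 0 rose and 5 fell, led by *Abca8a* at -4.05 (adjusted p = 5e-05, limma).

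The loci of the lipoxygenases and of *Lipk* and *Lipm* were also compared with the genes beside them, which were chosen after the values were seen. Beside the lipoxygenase pair, *Vamp2*, *Per1*, *Cntrob* and *Trappc1* were not called, with log2 fold changes of -0.57, -0.66, 0.43 and 0.04, while *Alox8*, next to *Alox12b* and on the other strand, rose by 2.54. Beside the lipases, *Rnls*, *Lipo1* and *Stambpl1* were not called, at -0.96, 0.36 and -0.08, and *Lipn* and *Ankrd22* rose by 2.16 and 4.49. Beside *Alox12e*, *Alox12* rose by 1.29, and *Rnasek*, *Alox15* and *Pelp1* were not called, at -0.18, 0.74 and -0.03. At each locus, DEGs stood next to genes that were not called.

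**Figure D5:**
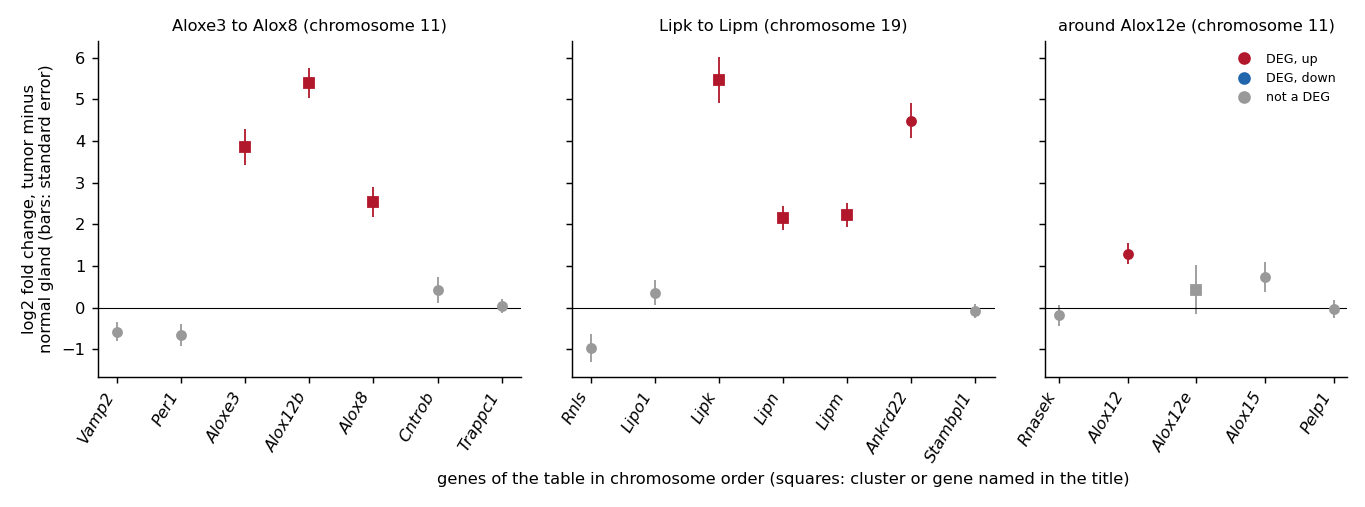
Log2 fold change of tumor against gland, with standard errors, for the genes at and around 3 loci, in their order along the chromosome, with squares for the genes of the locus and circles for those beside it. *Alox12b* is highest at 5.39 and *Lipk* at 5.47, and genes that were not called lie between -0.96 and 0.74.

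Outside all lists, *Sprr2k*, *Ddah1* and *Trim71* were among the 5 genes whose pattern over the 6 libraries was nearest to the mean of the barrier genes. Their Euclidean distances on median-centered log2 values were 0.372, 0.405 and 0.558, and in each of them T11035 was the lowest tumor. Among the barrier genes, *Cyp4f39* was nearest to their own mean, at 0.740, and *Alox12e* was farthest, at 5.33.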

How the data were processed

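RNA was measured in 3 mammary tumors and 3 matched normal glands, and libraries were grouped by their tissue label. According to the methods, the authors mapped 2 reads per fragment to mm9 and counted fragments per RefSeq gene. The submitters' processing notes name CASAVA 1.8.2, TopHat2 2.0.3, HTSeq 0.5.3p9 and edgeR 3.6.1. The authors deposited a normalized signal per gene, in CPM on edgeR's effective library size, after removing genes with fewer than 10 fragments. In every library 100% of values were whole multiples of 1 fragment (tolerance 0.01), which gave the depth: 4750989, 6127715 and 7372155 fragments in M11035, M11640 and M9232, and 5116883, 7806908 and 6948233 in T11035, T11640 and T9232. Floors and intervals cover counting error only. No library was a copy of another of its tissue (lowest chi-square per degree of freedom 13.0).

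The test was limma 3.58.1 (R 4.3.3) on log2(CPM + 0.5), two-sided, without a block for the mouse and with a trend of variance on mean, over 15280 genes. Fold changes on this scale understate those of low genes. The p-values rest on 3 mice per tissue. The members and gene lists were chosen with earlier results of these data known. Genes named are the members, the DEGs of the pathway lists, list genes used by name, *Atf3*, the genes beside the members (chosen after their values were seen) and the 5 nearest patterns, of which some are not reported here. Of 131 list genes, 3 matched by older symbol and 14 are not analysed here.

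Tumor and gland of a mouse come from 1 animal, so mouse numbers pair the libraries. Deviations from the tissue means correlated with r of 0.107 (T11035), 0.151 (T11640) and 0.0168 (T9232), over 14712 genes averaging 1 CPM or more. Alternatives were pseudocounts of 0.1 and 1, a filter at a mean of 1 CPM, other scalings, no trend, the replicate block, edgeR 4.0.16 and DESeq2 1.42.0 on the recovered fragments, and leaving out each library. Similarity was searched with BLAST 2.17.0. The fits were tested on simulated data.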

Additional observations from a re-analysis of the deposited data

How the results depend on the processing

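Over 16 alternatives, all 9 barrier genes called in the report were called each time. *Alox12e* reversed to -0.15 without tumor T11035, and without 1 library at a time it ranged from -0.15 to 0.90. The number of acid lipases called down went from 0 to 1 (*Lipa*) with the plain library total, with the replicate block, with edgeR's quasi-likelihood test with and without that block, with DESeq2 and without gland M11035, a range of 0 to 1 when libraries were left out. With the replicate block, 4298 genes were DEGs against 4309 without it, 4194 of them shared, and among the 10 barrier genes and the 20 DEGs of the pathway lists it changed no call. Marker, family and neighbor genes were not compared under the alternatives. The median log2 fold change of the 4 pathway lists ranged from 0.29 to 0.60 when 1 library was left out, at 0.60 without M11640, 0.52 without M9232 and 0.50 without T11035. Of these 20 DEGs, 3 lost their call without single libraries: *Lass4* without M11035 or T11640, *Degs2* without M11640, T11640 or T9232, and *Tecr* without M11640. The cause of these changes was not tested. The count of DEGs ranged from 3774 to 4374 when 1 library was left out. Depth limits the gland side of *Alox12b*, *Cyp4f39* and *Lipk*, whose folds rest on 2 to 4 gland fragments.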
